A study of Mus musculus with 272 samples.

Results

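Zygotes and 4-cell embryos of the mouse stand on either side of the switch from maternal to embryonic gene expression, and their transcriptomes were compared here. The comparison holds the 4 zygote and the 4 later transcriptome libraries that the labels call Zygote_mRNA and 4C_mRNA, 8 of the 272 libraries of the series. A zygote is the fertilized egg before its first division, and a 4-cell embryo is the product of the second. Each transcriptome library was made from a pool of 20 embryos of 1 batch, by capture of polyadenylated RNA and Smart-seq amplification without molecular identifiers. The pools are lettered A to D at both stages. Strain, parental age, mating and culture are not given in the sources used here, and no treatment is named. Nothing says that the pools of a stage came from separate matings. The p-values thus rest on a spread between pools, shared over all 8 stages, that may be technical. The other 24 transcriptomes, from 6 further stages, entered only the shared estimate of spread and, for 2-cell and 8-cell embryos, the placing of genes in time. Sucrose gradients of about 100 embryos each, 3 per stage, gave a second readout in separate libraries, the mean of fractions 6 to 10, which lie on the ribosome-bound side by convention.

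The growing oocyte stores large amounts of messenger RNA, and transcription stops before the egg is ovulated. After fertilization the stored transcripts are deadenylated and destroyed while the embryo's own genome is switched on, in the mouse mainly during the 2-cell stage. A burst of genes such as the Zscan4 family is transcribed in 2-cell embryos and shut off again. Setting the zygote against the 4-cell embryo passes over that burst and asks which differences last beyond genome activation.

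Zygote libraries held 16.7 to 20.6 M reads in genes and 4-cell libraries 14.1 to 19.1 M. Values are CPM, the reads of a gene per 1 M reads of its library, and are not scaled to transcript length, so levels are compared within a gene and not between genes. Genes with at least 1 CPM numbered 10349 ± 58.8 in zygotes and 11203 ± 64.9 in 4-cell embryos (SD, n = 4). Across genes, Pearson's r between libraries of 1 stage was 0.990 to 0.992 in zygotes and 0.970 to 0.977 in 4-cell embryos, a description of the libraries, since genes are not replicates. The median SD of a gene over the 4 libraries was 0.20 (log2 scale) in zygotes and 0.34 in 4-cell embryos. Reads at the 18S ribosomal RNA gene Rn18s made up 0.0533 to 0.0871% of zygote and 0.534 to 1.31% of 4-cell libraries, and without ribosomal and mitochondrial RNA genes 5827 genes were called higher and 4227 lower in 4-cell embryos, against the 5772 and 4231 given below.

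The stage labels were checked against marker genes. The oocyte transcripts Gdf9 and Bmp15, secreted growth factors of the oocyte, stood at 2302 ± 396 and 1880.2 ± 189 CPM in zygotes and at 11.9 ± 6.54 and 4.67 ± 1.52 CPM in 4-cell embryos. Klf5, a transcription factor of the cleaving embryo, stood at 0.158 ± 0.22 CPM in zygotes and 352 ± 93.8 CPM in 4-cell embryos, without overlap. Zscan4d, the marker of the 2-cell burst, had 10.8, 19.4, 7.76 and 8.61 CPM in zygotes A to D and 8.2, 3.7, 1.5 and 3.14 CPM in 4-cell embryos A to D, against 1223 ± 239 CPM in 2-cell embryos. By these genes the 4-cell libraries carried embryonic transcripts and only traces of the 2-cell burst. Not every marker followed its class. The maternal transcript Dppa3 (change 0.44) and the embryonic gene Pou5f1 were not called. Zfp352, of the 2-cell burst, was higher in 4-cell embryos than in zygotes (change 2.13), a call lost with a pseudocount of 5, at 0.83. The fall of Zscan4d was not called with that pseudocount either, at -0.87. Levels of Dppa3, Pou5f1 and Zfp352 are given below. Of 22 markers of cumulus and granulosa cells, which surround the egg, 6 were in the deposited table, and their summed level was 48.9 to 60.6 CPM in zygotes and 17.1 to 32.7 CPM in 4-cell embryos. Nearly all of it was Cyp19a1 (aromatase) in zygotes, at 53.8 ± 4.41 CPM, and Amhr2 (a hormone receptor) in 4-cell embryos, at 24.9 ± 7.18 CPM. The granulosa receptor Fshr was at 0.658 ± 0.487 CPM in zygotes and 0 CPM in 4-cell embryos, and Inha (inhibin) had 0 reads in all 8 libraries. Of 13 sperm and testis markers 5 were in the table, with sums of 62.8 to 71.5 CPM in zygotes and 28.8 to 45.7 CPM in 4-cell embryos. Of 11 blood and fibroblast markers 4 were in the table, with sums of 16.3 to 18.6 CPM in zygotes and 70.9 to 207.3 CPM in 4-cell embryos. Pecam1, an endothelial gene, rose from 13.8 ± 0.807 to 31.8 ± 9.11 CPM, a call lost under 4 other scalings, with a pseudocount of 5 and without 4-cell library C (change 0.94 in both), and the rest of the rise was in Hba-a1 (alpha globin). Hba-a1 had 0 reads in each zygote library and 36.1, 73.7, 159 and 53.2 CPM in 4-cell embryos A to D. The part of these transcripts in other results was not tested.

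More than 2 in 3 genes differed between the stages. Of 14642 genes tested with limma on log2(CPM + 1), 10003 (68.3%) were called, that is, they had a Benjamini-Hochberg adjusted p under 0.05 and a change of at least 1 on the log2 scale. In 4-cell embryos 5772 genes (39.4%) were higher and 4231 (28.9%) lower, and 4639 were not called. Rises made up 57.7% of these calls, and 50.6 to 52.8% under TMM scaling (5096 higher and 4892 lower), quantile normalization (5082 and 4899), edgeR (5878 and 5252) and DESeq2 (5648 and 5513), so the excess of rises depended on the scaling. The shares of 39.4% and 28.9% are the background against which each gene group below is read. The 4 zygote values and the 4 values of 4-cell embryos did not overlap for 11389 genes (77.8%). Large changes were common: 634 genes rose and 452 fell by at least 5 log2 units, which is 32-fold on that scale.

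Genes that were called held most of the CPM at both stages. They were chosen by their change in the same libraries, so the direction of each share was fixed and only its size is described. A share of CPM is not a share of messenger RNA molecules. Genes that rose made up 8.19% of zygote CPM (7.89 to 8.39% over libraries) and 74.4% of 4-cell CPM (73.4 to 75.7%). Genes that fell made up 73.0% of zygote CPM (72.2 to 73.4%) and 6.0% of 4-cell CPM (5.93 to 6.13%). Spearman's rho between the mean levels of the stages was 0.415 across the genes tested. A total of 936 genes that rose had at most 3 reads in each zygote library, and 553 genes that fell had at most 3 reads in each 4-cell library. CPM is relative to the library total, and with capture by the poly(A) tail fewer copies and shorter tails cannot be told apart; nor can fewer cells and less RNA per cell. The median change of all genes was 0.37, and it was 0.10 after quantile normalization, 0.09 after TMM scaling, 0.21 with edgeR and 0.04 with DESeq2 on recovered reads, so each change below is set against a median of 0.37.

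**Figure D1:**
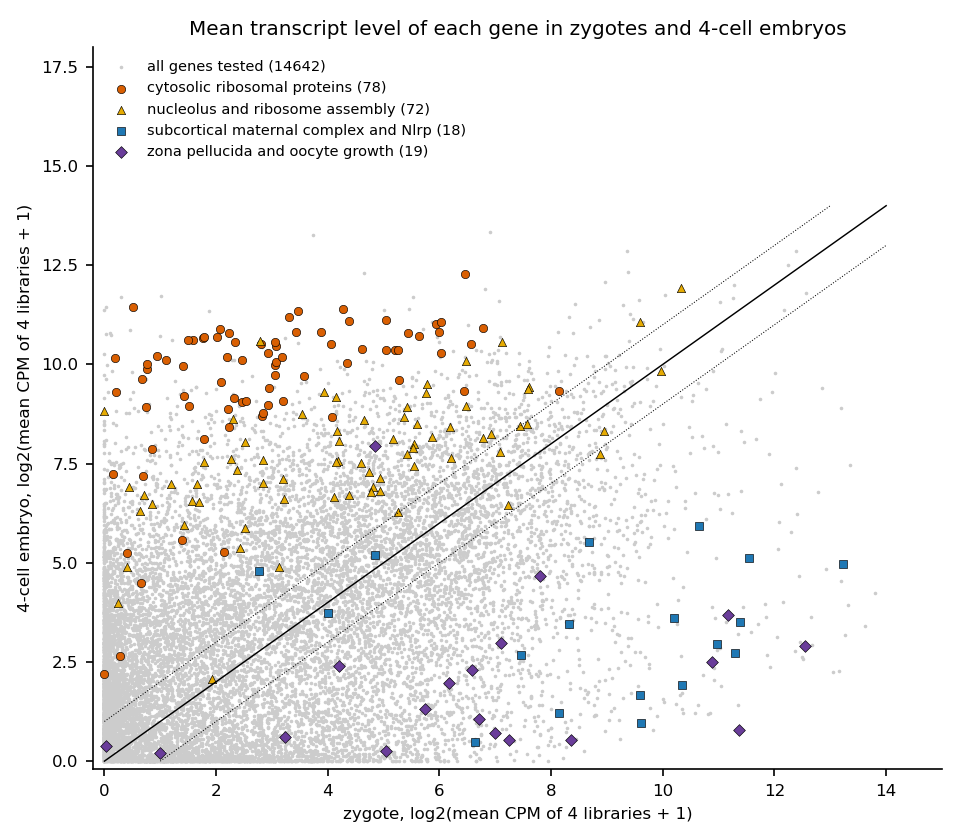
Mean transcript level of the 14642 genes tested in zygotes (x axis) and 4-cell embryos (y axis), both as log2(mean CPM of 4 libraries + 1), with 4 gene lists in colour; the solid line marks equal levels and the dotted lines 1 log2 unit of difference. Ribosomal protein genes (78) lie above the upper dotted line, and 15 of 18 genes of the maternal complex list and 16 of 19 zona and oocyte growth genes were called lower.

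The genes with the largest rises came from near 0 and belonged to several kinds. Mt1, a metallothionein that binds zinc and copper, had 0.444, 0.142, 0.234 and 0.111 CPM in zygotes A to D and 3205, 3126, 3018 and 3862 CPM in 4-cell embryos A to D (change 11.39, SE 0.18, limma adjusted p 1.5e-34). Crxos, an embryonic homeobox gene, went from 2 reads over the 4 zygote libraries to 3674, 2168, 3212 and 2131 CPM in 4-cell embryos A to D. Every 4-cell value of both genes lay above every zygote value, which their choice by large rises makes likely. The ribosomal protein gene Rps19 rose by 10.92 and Gcsh, a carrier protein of the glycine cleavage system, by 10.73, from 1.01 ± 0.323 to 3399 ± 304 CPM. The tripartite motif genes Trim43a and Trim43b reached 1739.6 ± 282 and 1880.2 ± 326 CPM, Timd2, a surface receptor gene, 1763 ± 646 CPM and the homeobox gene Obox6 1702 ± 411 CPM, all from means below 0.39 CPM. Trim43 and Obox genes have near-identical copies among which reads may have been split, so their values are uncertain. Timd2 varied most among these in 4-cell embryos, with 1927, 834, 2329 and 1964 CPM in A to D.

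Other genes that rose from the floor encode enzymes and import factors. Pdxk, the kinase that activates vitamin B6, had 0 reads in each zygote library and 1287, 1401, 967 and 1219 CPM in 4-cell embryos A to D, at least 7713-fold above a floor of 3 reads per library. Bhmt, which makes methionine from betaine, likewise had 0 reads in zygotes and 922, 915, 769.7 and 775 CPM in 4-cell embryos, at least 5351-fold. Tomm5, a small subunit of the mitochondrial import channel, rose from at most 2 reads per library to 1016 ± 80.5 CPM. In 2-cell embryos the means of Pdxk, Bhmt and Tomm5 were 59.7 ± 6.88, 1.8 ± 1.25 and 30.8 ± 7.71 CPM, each under 1 in 15 of the 4-cell mean.

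The largest falls included homeobox, secreted protein and linker histone genes of the oocyte. Obox2, a homeobox gene of the oocyte, had 8579, 7682, 8104 and 9345 CPM in zygotes A to D and 2.32, 2.81, 2.36 and 7.39 CPM in 4-cell embryos A to D (change -10.92, SE 0.25, limma adjusted p 1.7e-29). Its relatives Obox1 and Obox5 fell, with changes of -10.90 and -10.23, from 9139 ± 541 and 12583 ± 849.6 CPM. Rfpl4, an oocyte RING finger gene, fell from 9790.3 ± 862 to 8.06 ± 5.21 CPM, and Oosp3, an oocyte-secreted protein gene, from 2640.4 ± 363 to 0.712 ± 0.249 CPM. The oocyte apoptosis regulator Bcl2l10 and the coiled-coil gene Ccdc69 ended at 6.61 ± 2.15 and 1.65 ± 0.968 CPM, from 6513 ± 376 and 2612 ± 318 CPM. Among genes that ended at the floor, Pabpn1l, an oocyte poly(A)-binding protein, had 242, 293, 192 and 256 CPM in zygotes A to D and 0 reads in each 4-cell library, at least 1462-fold lower. Gpr149, an orphan receptor of the oocyte, Gpm6a, a membrane glycoprotein, and Ncald, a calcium sensor, fell to the floor from 100.0 ± 5.66, 105 ± 10.3 and 92 ± 7.86 CPM, and so did the receptor pseudogenes Vmn2r-ps110 and Olfr1300-ps1 from 161 ± 10.8 and 99.7 ± 17.2 CPM. H1f8, the oocyte linker histone, changed by -9.99. All of these genes were without overlap between the stages, which their choice by large falls makes likely, beside 77.8% of all genes tested.

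**Figure D2:**
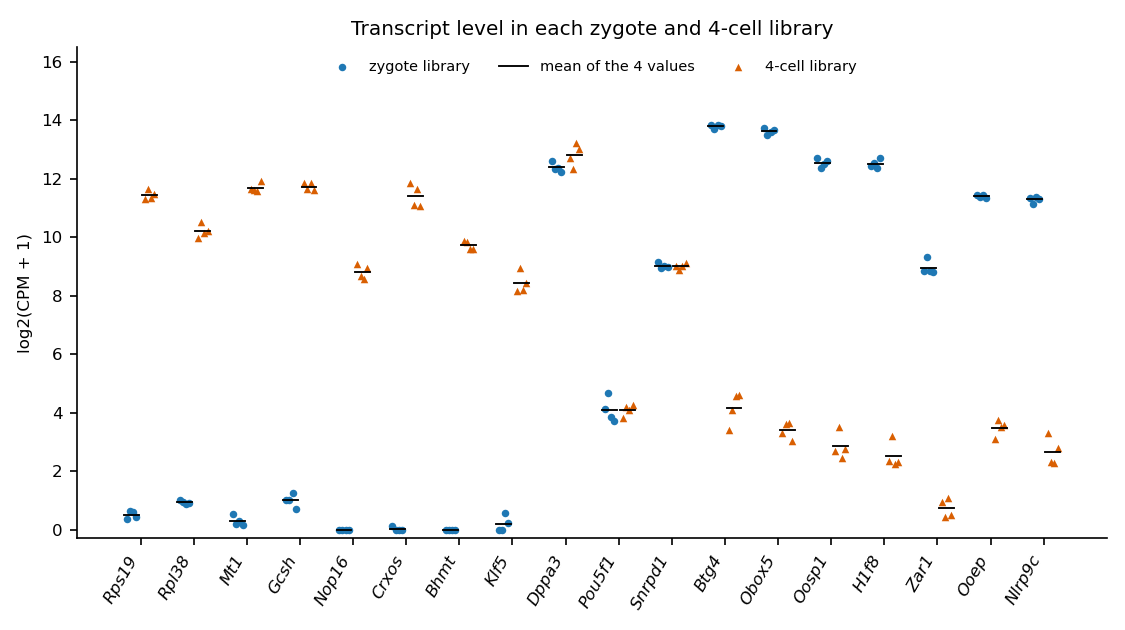
Level of 18 genes in each zygote library (circles) and each 4-cell library (triangles), as log2(CPM + 1); bars mark the mean of the 4 values. Rps19, Rpl38, Mt1, Gcsh, Nop16, Crxos, Bhmt and Klf5 are below 1.5 in each zygote library, Dppa3, Pou5f1 and Snrpd1 overlap between the stages, and the 7 genes from Btg4 to Nlrp9c are lower in each 4-cell library.

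All 78 cytosolic ribosomal protein genes tested rose, against 39.4% of all genes. Their changes ran from 1.18 to 10.92 around a median of 6.71. Summed over the list, they made up 1417 to 1599 CPM in the 4 zygote libraries and 87313 to 93081 CPM in the 4 libraries of 4-cell embryos, and 3908 to 4472 CPM in 2-cell embryos. Rps19 of the small subunit had 0.296, 0.569, 0.525 and 0.333 CPM in zygotes A to D and 2526, 3189, 2575 and 2842 CPM in 4-cell embryos A to D. Rpl38 and Rpl9 of the large subunit rose from 0.911 ± 0.0908 to 1193 ± 200.3 CPM and from 0.137 ± 0.243 to 1142 ± 287 CPM. In all 3 genes, chosen for the largest changes of the list, every 4-cell value lay above every zygote value. Processed pseudogenes of these genes are numerous, so part of their reads may be assigned elsewhere. Most of the rise lay between the 2-cell and the 4-cell stage: in 2-cell embryos Rps19 was at 53 ± 4.64 CPM and Rpl38 at 12.3 ± 1.26 CPM.

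Genes for building ribosomes rose with them. Of 72 genes of the nucleolus and ribosome assembly 65 rose and 1 fell, with a median of 3.35. Nop16, a nucleolar assembly factor, had 0 reads in each zygote library and 543, 402, 379 and 488 CPM in 4-cell embryos A to D, at least 2867-fold. Nhp2, part of the particles that pseudouridylate ribosomal RNA, rose from 5.93 ± 1.93 to 1529 ± 173 CPM, and Nop2, a ribosomal RNA methyltransferase, from 0.361 ± 0.386 to 119.6 ± 10.2 CPM. Mphosph10, of the early small-subunit processome, was the member that fell, from 470.4 ± 21.6 to 214 ± 13.8 CPM. Of 39 translation initiation factor genes 32 rose and 4 fell (median 2.95). Eif1a, which scans for the start codon, rose from 0.704 ± 0.484 to 446 ± 26 CPM, Eif2b5, of the exchange factor that recycles eIF2, from 0.924 ± 0.251 to 125 ± 19.2 CPM, and Eif3l, of the eIF3 scaffold, from 4.64 ± 0.318 to 354 ± 27 CPM. Eif1b fell from 246 ± 31.9 to 84.9 ± 20.3 CPM. Aminoacyl-tRNA synthetases, which charge tRNAs, had 13 of 20 higher and 1 lower (median 1.42): Yars rose by 7.07, Aars by 4.55 and Mars1 by 3.78, and Farsb fell from 194 ± 11.9 to 63 ± 8.75 CPM.

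**Figure D3:**
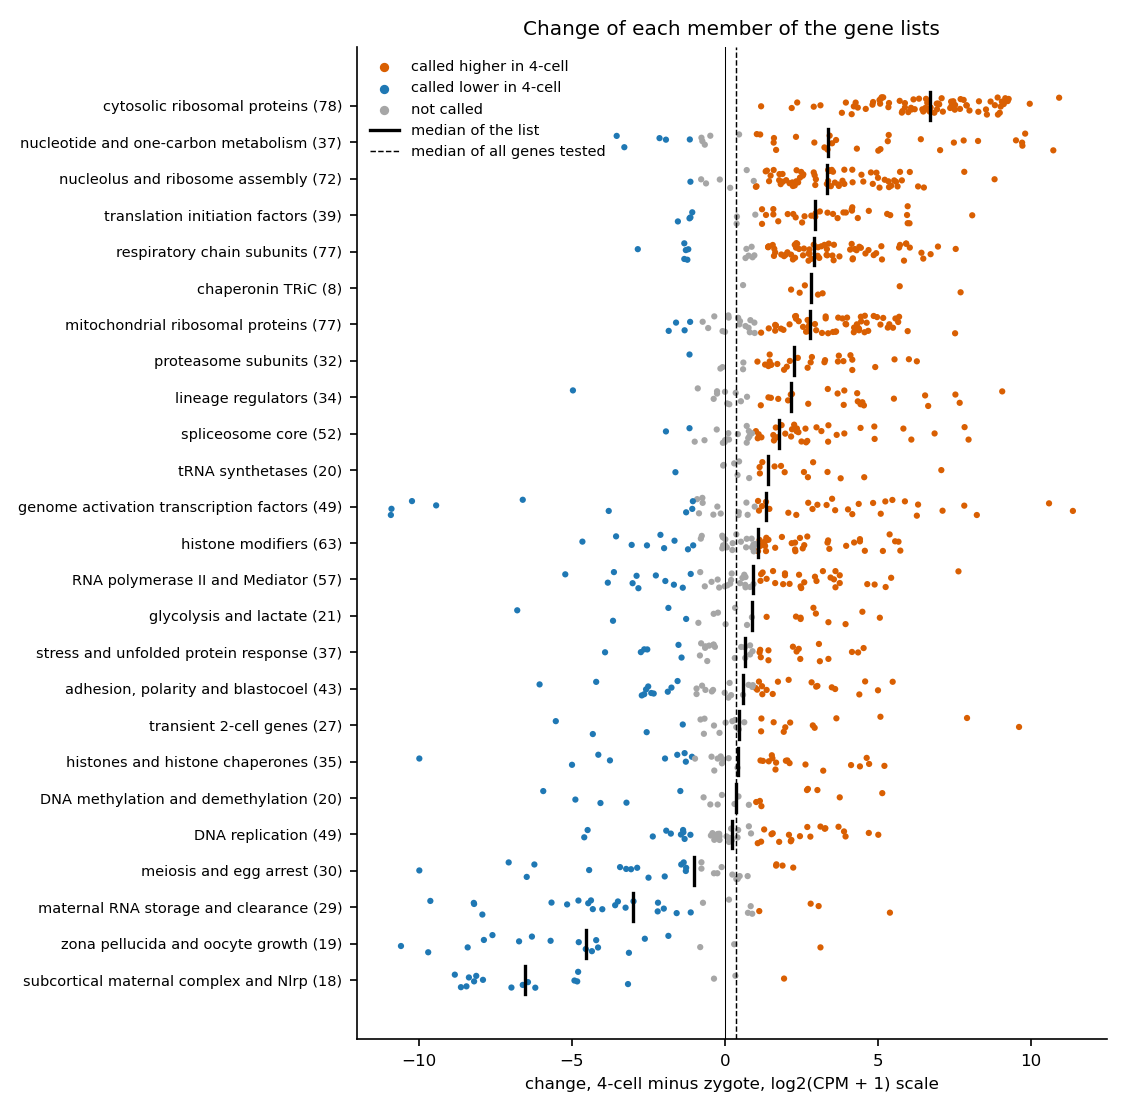
Change of each member of 25 gene lists between zygote and 4-cell embryo on the log2(CPM + 1) scale, with the number of genes tested in brackets, the median of each list as a bar and the median of all genes (0.37) as a dashed line. The ribosomal protein list lies furthest to the right (median 6.71) and the maternal complex list furthest to the left (median -6.52), and most lists in between hold members called in both directions.

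Promoter sequences were set beside these groups because their members moved together. RefSeq promoters of build GRCm38.p6, from 250 bases before to 50 after the annotated start, were matched by symbol. They covered 11182 of 14642 genes (76.4%), below the 80% set for describing a group, so the comparison of all risen with all fallen genes and of the ribosomal protein list (73.1%) is void. Lists with at least 80% and at least 15 promoters were described with 12 short motifs on both strands, none of which contains another: CCAAT (the CCAAT box), GGGCGG (the GC box), TATAAA (the TATA box), CCGGAAG (the core of ETS factor sites), CACGTG (the E-box), GCGCATG (part of the NRF1 site), AAGATGG (a YY1 site), TAATCC (a homeobox site), GACGTCA (a cyclic AMP element), CAAGGTC (part of a nuclear receptor site), the promoter word TCTCGCG and the promoter word CTTTCCG. The ETS core CCGGAAG was in 23 of 61 nucleolus and assembly promoters (37.7%), 24 of 68 of mitochondrial ribosomal proteins (35.3%), 9 of 26 of the proteasome (34.6%) and 16 of 42 of the spliceosome (38.1%), against 9.12% of all 27025 promoters. That background includes promoters of genes not tested here. Its median CpG count was 7, against 19.5 to 23.5 in these lists, and the part of CpG content in the difference was not tested. Other lists in which most genes rose had 10 of 32 translation initiation factor promoters (31.25%), 15 of 65 of the respiratory chain (23.1%) and 5 of 34 of nucleotide and one-carbon metabolism (14.7%). Lists whose members moved in both directions held it too. It was in 17 of 49 of RNA polymerase II and Mediator (34.7%), 14 of 40 of DNA replication (35.0%) and 6 of 32 each of histones and the stress list (18.75%). Among lists in which more genes fell than rose, it was in 3 of 25 of meiosis and egg arrest (12%), 2 of 24 of maternal RNA storage and clearance (8.33%) and 0 of 16 of the subcortical maternal complex and Nlrp list. It was in 0 of 16 of DNA methylation and 0 of 20 of glycolysis. CCAAT was in 11 of 16 maternal complex promoters (68.8%) and 20 of 25 of meiosis and egg arrest (80%) against 37.9% of all, but also in 24 of 32 of histones (75%), 23 of 32 of the stress list (71.9%) and 21 of 34 of nucleotide and one-carbon metabolism (61.8%), where more genes rose than fell. The median CpG count of the maternal complex promoters was 2 against 7 over all promoters and 21 in the nucleolus list. A low count was not common to the lists that fell. It was 27.5 in maternal RNA storage and clearance and 20 in meiosis and egg arrest. A match is a description of letters and not a site in use. The windows, strand in brackets, are chr11:51619523-51619822 (+) for Nhp2, chr6:125131633-125131932 (+) for Nop2, chr19:45006393-45006692 (-) for Mrpl43, chr7:140882144-140882443 (+) for Psmd13, chr7:26403651-26403950 (-) for Nlrp9c and chr9:78378539-78378838 (-) for Ooep. The first 4 sequences are promoters of genes that rose, with CCGGAAG in capitals, and the last 2 of genes that fell, with CCAAT in capitals, each in the direction of its gene. In the risen genes the match lies close to the start: it begins 23 bases before it in Nhp2, 38 in Nop2, 56 and 12 in Mrpl43 and 6 in Psmd13. The 3 CCAAT matches of Nlrp9c begin 95, 74 and 50 bases before the start, in a window with 2 CpG, and the match of Ooep lies 196 bases before it, in a window with 15. Only CCGGAAG is marked in the first 4 sequences: that of Nhp2 also holds CCAAT, left in lower case.
Nhp2: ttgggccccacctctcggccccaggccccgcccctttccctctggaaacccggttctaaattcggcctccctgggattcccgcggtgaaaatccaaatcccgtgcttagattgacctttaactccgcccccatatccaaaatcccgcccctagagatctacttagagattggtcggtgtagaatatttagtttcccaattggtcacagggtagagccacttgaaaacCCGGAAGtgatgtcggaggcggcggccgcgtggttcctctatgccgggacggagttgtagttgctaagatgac
Nop2: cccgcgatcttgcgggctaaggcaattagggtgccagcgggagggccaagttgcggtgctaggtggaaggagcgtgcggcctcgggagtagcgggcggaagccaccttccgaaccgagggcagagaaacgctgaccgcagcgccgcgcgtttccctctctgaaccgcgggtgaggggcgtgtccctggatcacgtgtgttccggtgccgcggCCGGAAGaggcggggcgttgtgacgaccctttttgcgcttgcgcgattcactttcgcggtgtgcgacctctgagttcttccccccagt
Mrpl43: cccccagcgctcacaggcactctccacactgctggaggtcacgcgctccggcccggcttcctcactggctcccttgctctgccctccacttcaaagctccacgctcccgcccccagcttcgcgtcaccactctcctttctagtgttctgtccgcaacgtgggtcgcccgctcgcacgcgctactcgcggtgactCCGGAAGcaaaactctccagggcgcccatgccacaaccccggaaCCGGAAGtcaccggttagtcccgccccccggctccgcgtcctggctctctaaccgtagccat
Psmd13: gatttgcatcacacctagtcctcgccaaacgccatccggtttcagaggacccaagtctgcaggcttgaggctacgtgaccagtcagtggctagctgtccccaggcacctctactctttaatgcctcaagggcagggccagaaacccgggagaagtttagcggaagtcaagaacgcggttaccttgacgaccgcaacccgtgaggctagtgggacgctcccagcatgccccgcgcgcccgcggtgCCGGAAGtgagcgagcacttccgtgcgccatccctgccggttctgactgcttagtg
Nlrp9c: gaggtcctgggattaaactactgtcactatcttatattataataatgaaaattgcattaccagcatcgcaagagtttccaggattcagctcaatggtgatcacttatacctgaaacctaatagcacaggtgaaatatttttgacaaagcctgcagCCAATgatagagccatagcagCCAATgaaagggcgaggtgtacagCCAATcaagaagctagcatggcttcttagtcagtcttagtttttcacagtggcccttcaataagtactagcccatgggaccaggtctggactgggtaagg
Ooep: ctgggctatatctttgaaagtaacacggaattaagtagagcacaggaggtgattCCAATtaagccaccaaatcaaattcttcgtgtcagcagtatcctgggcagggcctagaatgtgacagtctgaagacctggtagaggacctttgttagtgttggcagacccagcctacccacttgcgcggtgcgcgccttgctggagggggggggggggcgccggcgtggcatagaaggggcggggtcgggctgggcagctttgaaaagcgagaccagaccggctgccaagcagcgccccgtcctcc

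Mitochondrial genes rose in large numbers with a minority moving the other way. Of 77 mitochondrial ribosomal protein genes 57 rose and 4 fell (median 2.76), and of 77 nuclear genes for respiratory chain subunits 65 rose and 6 fell (median 2.90). Mrpl20 rose from 1.27 ± 0.462 to 410.1 ± 38.9 CPM, Mrpl12 from 6.74 ± 1.42 to 481 ± 49.9 CPM and Mrpl43 from 0.168 ± 0.162 to 59.2 ± 3.73 CPM, while Mrpl24 fell from 49.4 ± 4.73 to 13.1 ± 1.63 CPM. All 4 encode proteins of the large mitochondrial subunit. In the respiratory chain, Cox7c of complex IV had 1.53, 0.948, 0.934 and 0.333 CPM in zygotes A to D and 341, 342, 388 and 331 CPM in 4-cell embryos A to D. Uqcrc1 of complex III and Ndufc1 of complex I rose by 6.96 and 6.72, and Ndufa10 of complex I fell from 348 ± 36.7 to 48.3 ± 12.5 CPM. Summed levels went from 2397 to 2620 CPM in zygotes to 10416 to 11856 CPM in 4-cell embryos for the mitochondrial ribosome, and from 3028 to 3268 CPM to 14725 to 16761 CPM for the respiratory chain.

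Protein quality control and splicing genes followed. Of 32 proteasome subunit genes 27 rose and 1 fell (median 2.25). The beta subunits Psmb5 and Psmb1 rose by 6.27 and 5.54 and the lid subunit Psmd13 by 6.01, while Psma2, of the outer ring, fell from 1286 ± 97.6 to 581 ± 94 CPM. All but 1 of 8 genes of the chaperonin TRiC, which folds actin and tubulin, rose (median 2.82), with Cct6a going from 1.47 ± 0.722 to 495 ± 32 CPM, Cct4 from 17.7 ± 2.18 to 977 ± 123 CPM and Tcp1 from 56.2 ± 7.63 to 519 ± 58.9 CPM. Of 52 spliceosome core genes 34 rose and 2 fell (median 1.78). Snrpd2, Snrpb and Snrpc, proteins of the small nuclear particles, rose by 7.96, 7.83 and 6.85, and Snrnp27 fell from 327 ± 12.5 to 86.6 ± 19.5 CPM. Snrpd1, in the same ring of proteins as Snrpd2, was not called: 565, 486, 509 and 498 CPM in zygotes A to D and 519, 463, 513 and 559 CPM in 4-cell embryos A to D. The genes of RNA polymerase II and its Mediator were more divided, with 28 of 57 higher (49.1%) and 11 lower (19.3%) around a median of 0.93. Med29 rose from 1.27 ± 0.561 to 438 ± 12.4 CPM and Med30 fell from 822 ± 35.1 to 21.9 ± 7.04 CPM, both of Mediator. The polymerase subunit Polr2l and the elongation factor gene Supt4a rose by 5.43 and 5.25.

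In intermediary metabolism, nucleotide and one-carbon genes rose in 27 of 37 cases and fell in 5 (median 3.35, or 3.50 with genes at the floor set at their bound). Impdh2, the committed step of guanine nucleotide synthesis, had 0.887, 0.0948, 1.23 and 1.72 CPM in zygotes A to D and 1927, 1752, 1495 and 1604 CPM in 4-cell embryos A to D. Mat2b, the regulatory subunit of the enzyme that makes S-adenosylmethionine, fell from 3249 ± 138 to 279 ± 40.3 CPM. Of 21 glycolysis and lactate genes 10 rose and 4 fell (median 0.88). Hexokinase Hk1 went from 0 reads in each zygote library to 28.6, 35.5, 35.9 and 30 CPM in 4-cell embryos A to D, at least 206-fold, and Pgam1 rose by 4.49. The lactate dehydrogenase gene Ldhb fell from 4279 ± 231 to 39.5 ± 13.4 CPM, and with it the summed level of the list, from 4303 to 4839 CPM in zygotes to 1032 to 1111 CPM in 4-cell embryos, although more of its genes rose than fell.

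Maternal gene groups fell. Of 19 genes of the zona pellucida, the coat of the egg, and of oocyte growth, 16 fell and 1 rose, against 28.9% of all genes lower (median -4.55). Oosp1 had 6633, 5325, 5747 and 6189 CPM in zygotes A to D and 5.47, 10.3, 4.39 and 5.72 CPM in 4-cell embryos A to D. Bmp15 and Gdf9 fell, with changes of -8.41 and -7.60, and so did the zona gene Zp3, from 221 ± 29.2 to 24.6 ± 5.44 CPM. Cd9, a membrane protein that sperm fusion requires, was the member that rose, from 27.7 ± 6.55 to 246 ± 35.8 CPM. The subcortical maternal complex, a protein assembly under the egg membrane that early cleavage needs, and its Nlrp relatives had 15 of 18 genes lower and 1 higher (median -6.52). Ooep had 2766, 2622, 2747 and 2605 CPM in zygotes A to D and 7.63, 12.4, 10.3 and 10.9 CPM in 4-cell embryos A to D, and Nlrp5, the core member also called Mater, fell from 319 ± 36.5 to 9.91 ± 3.2 CPM. Nlrp9c, Nlrp9a and Nlrp4b fell, with changes of -8.63, -8.45 and -8.83 and with reads that may be shared with close relatives. Khdc3, another member of the complex, rose from 5.82 ± 1.06 to 26.9 ± 12.8 CPM, with 14.1, 43.7, 29.3 and 20.7 CPM in 4-cell embryos A to D.

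Genes that store, read and clear maternal RNA fell in 20 of 29 cases and rose in 4 (median -2.99). Btg4, the adapter that brings the deadenylase to maternal transcripts, had 14537, 13424, 14422 and 14367 CPM in zygotes A to D and 9.54, 16, 22.7 and 23.2 CPM in 4-cell embryos A to D (change -9.63, SE 0.21). The RNA-binding genes Zar1 and Dazl fell, with changes of -8.21 and -8.20, to 0.7 ± 0.386 and 8.23 ± 3.08 CPM. Nanos3, a germ cell RNA-binding gene, moved the other way, from 0 reads in each zygote library to 40.2, 59.9, 33.3 and 35.4 CPM in 4-cell embryos A to D, at least 267-fold. Of 30 genes of meiosis and egg arrest 15 fell and 4 rose (median -1.02). H1f8 fell from 5843 ± 644 to 4.97 ± 2.13 CPM, Wee2, the oocyte kinase that restrains Cdk1, from 682 ± 30.2 to 4.33 ± 1.91 CPM and Fbxo43, the inhibitor that holds the egg in metaphase, from 146 ± 15.2 to 0.753 ± 0.767 CPM. Cdc25a, a phosphatase of the mitotic cycle, rose from 20.5 ± 4.34 to 101 ± 27.2 CPM.

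Several maternal genes have a close relative of wider expression, and 28 such pairs had both genes tested. The first gene of a pair is in most cases the oocyte or germ-line form. In 11 pairs the first gene fell and the second rose, in 8 both rose, in 4 both fell, in 3 only the second gene was called, higher, in 1 only the second was called, lower, and in 1 the first rose and the second fell. The poly(A)-binding protein gene Pabpc1l had 28.9, 43.2, 28.6 and 29.9 CPM in zygotes A to D and 0.722, 0.96, 0.589 and 0.203 CPM in 4-cell embryos A to D, and Pabpc1 2.17, 0.948, 1.11 and 2 CPM and 775, 574, 642 and 465 CPM. Both genes were without overlap, in opposite directions. The log2 ratio of Pabpc1l to Pabpc1 was 3.73 ± 0.57 in zygotes and -8.57 ± 0.26 in 4-cell embryos (SD, n = 4). The cap-binding genes Eif4e1b and Eif4e changed by -5.67 and 2.23, the importins Kpna7 and Kpna2 by -7.72 and 1.24 (0.62 to 0.78 and not called for Kpna2 with TMM, edgeR or DESeq2), the kinases Wee2 and Wee1 by -7.07 and 3.68, and the lactate dehydrogenases Ldhb and Ldha by -6.79 and 2.97. Btg4 fell and Btg1 rose by 2.68, to 162 ± 40.7 CPM. The linker histone H1f0 rose by 1.24 where H1f8 fell by 9.99, but the H1f0 values overlapped between the stages and its call was lost under 4 other scalings, at 0.78 to 0.97, and without 4-cell library B, at 0.91.

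Other pairs did not swap. Among ribosomal proteins, Rps27l rose by 1.03 and Rps27 by 9.11, so that the log2 ratio of the first to the second went from 8.81 ± 0.31 to 0.73 ± 0.22 (SD, n = 4). The Rps27l call was lost under 4 other scalings, at 0.39 to 0.93, and without zygote library B (0.97) or 4-cell library D (0.95). Rpl39l and Rpl39 rose by 3.94 and 7.52. The RNA-binding genes Lsm14b and Lsm14a both fell, with changes of -2.99 and -3.14, and so did the oncogene relatives Tcl1b1 and Tcl1, with changes of -8.98 and -9.42. The glucose transporters went against the common order: Slc2a3 rose from 0.303 ± 0.393 to 18.9 ± 5.59 CPM and the widely expressed Slc2a1 fell from 18 ± 2.87 to 0.553 ± 0.5 CPM. The meiotic cohesin gene Rec8 had 0 reads in each zygote library and at most 1.03 CPM in 4-cell embryos and was not called, though it was with DESeq2, edgeR and a smaller pseudocount, whereas Rad21 rose from 68.2 ± 9.56 to 309 ± 58.2 CPM.

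**Figure D4:**
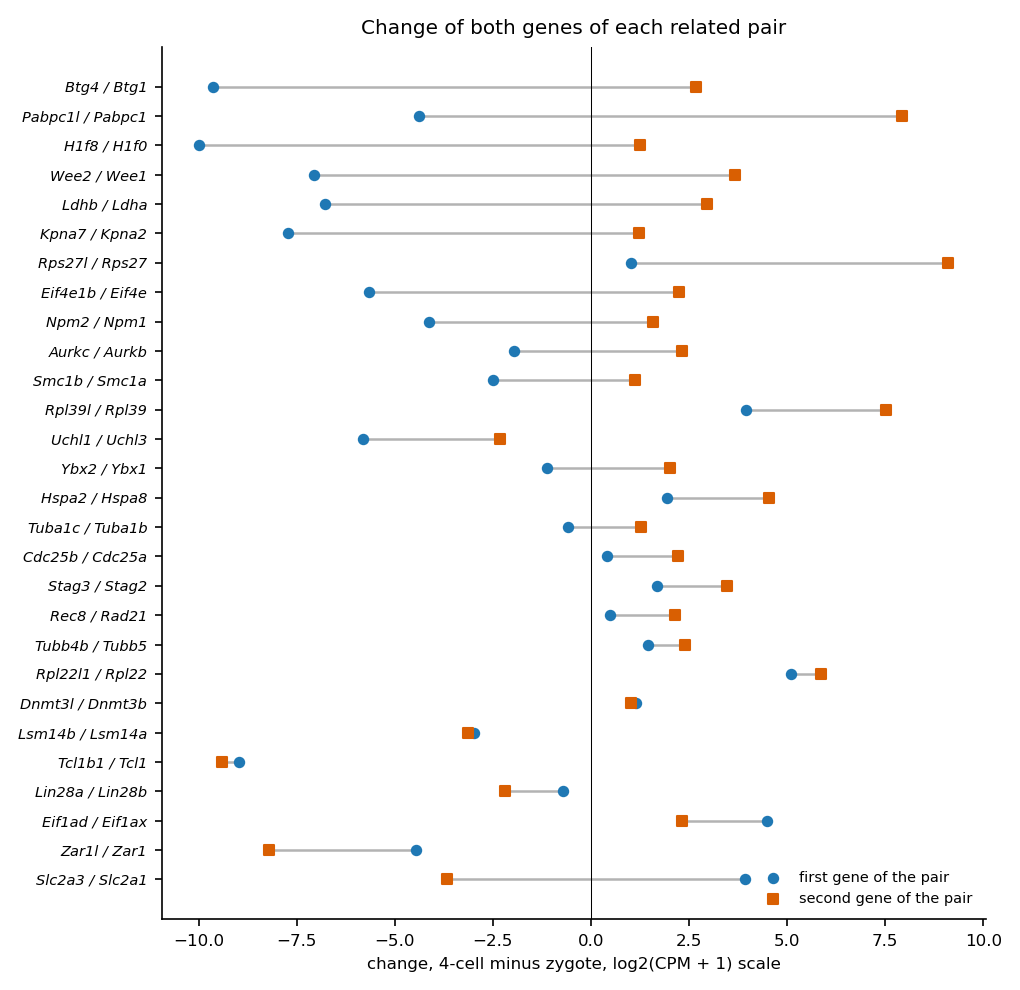
Change of both genes of 28 related pairs between zygote and 4-cell embryo on the log2(CPM + 1) scale, the first gene as a circle and the second as a square, ordered by the difference. Pabpc1l / Pabpc1 and Btg4 / Btg1 span 12.30 and 12.31 log2 units, and Slc2a3 / Slc2a1 at the bottom runs in the opposite direction.

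Regulators of embryonic identity mostly rose. Of 34 lineage regulators 23 rose and 1 fell (median 2.17, or 2.45 with floor bounds). Dppa5a, an RNA-binding pluripotency marker, rose from 24 ± 2.25 to 5067 ± 342 CPM, Alppl2, an alkaline phosphatase of the early embryo, from 1.13 ± 0.279 to 1134 ± 73.2 CPM and Spic, an ETS factor, from 7.32 ± 2.53 to 1507 ± 322 CPM. Nanog, the pluripotency factor, had 0.789, 0, 0.584 and 0.111 CPM in zygotes A to D and 15.7, 24, 20.8 and 16.3 CPM in 4-cell embryos A to D, without overlap. Tfap2c, a trophectoderm and pluripotency factor, rose from 12.3 ± 2.29 to 86.1 ± 12 CPM. Gata3, a trophectoderm factor, fell from 107 ± 15.2 to 2.71 ± 1.88 CPM. Pou5f1, which encodes Oct4, had 16.2, 24.1, 13.5 and 12.1 CPM in zygotes A to D and 12.9, 17.2, 15.9 and 18.3 CPM in 4-cell embryos A to D and was not called. Dppa3, a maternal factor that protects the maternal genome from demethylation, was not called either, at 5353 ± 592 and 7431 ± 1936 CPM with a change of 0.44, though its change was 1.24 and called after quantile normalization (limma adjusted p 1.0e-07). Transcription factors linked to genome activation were mixed, with 28 of 49 higher and 9 lower (median 1.34): Crxos rose, while Obox1 and Obox2 were the largest falls of the list.

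Genes for adhesion, polarity and the blastocoel were close to the background, with 18 of 43 higher (41.9%) and 11 lower (25.6%). F11r, a tight junction protein, rose from 1.18 ± 1.17 to 92.1 ± 34.5 CPM and the polarity kinase Prkcz from 0.167 ± 0.0852 to 37.2 ± 9.56 CPM, and Rdx, which links membrane and actin, fell from 4329.8 ± 523 to 64.1 ± 7.68 CPM. The 20 DNA replication genes that rose of 49 and the 10 that fell made up 40.8% and 20.4%, against 39.4% and 28.9% of all genes, and the median of 0.22 lay below that of all genes and went to 0 or below under the other scalings. Within replication protein A, Rpa2 rose from 11.4 ± 3.38 to 389 ± 22.9 CPM and Rpa3 fell from 285 ± 44.3 to 11.4 ± 4.63 CPM. Pold1, the catalytic subunit of polymerase delta, went from at most 3 reads per zygote library to 17.3, 39.4, 29.3 and 26.3 CPM in 4-cell embryos A to D.

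Chromatin regulators moved in both directions. Of 63 histone modifiers 32 rose and 9 fell (median 1.08): the demethylases Kdm4c and Kdm5b rose by 5.73 and 5.56, the arginine methyltransferase Prmt1 by 5.67, and the Polycomb gene Bmi1 fell from 629 ± 39.3 to 24.6 ± 6.98 CPM. Of 20 genes of DNA methylation and its removal 8 rose (40%) and 5 fell (25%), near the 39.4% and 28.9% of all genes. Their median of 0.37 was that of all genes and went below 0 with DESeq2 or TMM scaling. Tet3, the oxidase of the zygotic genome, fell from 336 ± 26.6 to 10.9 ± 4.06 CPM, and Zfp57, which guards imprints, from 1415, 1921, 842 and 1078 CPM in zygotes A to D to 22, 27.2, 16.4 and 14.6 CPM in 4-cell embryos A to D. Gadd45b, a stress-induced demethylation factor, rose to 50.1, 65.1, 25 and 112 CPM in 4-cell embryos A to D, the most uneven of these. Histones and their chaperones had 17 of 35 higher and 9 lower (median 0.41, below 0 with DESeq2, edgeR or TMM scaling): the variant H2az1 rose from 57.3 ± 2.49 to 2160.2 ± 133 CPM and Slbp, the histone stem-loop binding protein, fell from 5366 ± 436 to 167 ± 14.4 CPM. Of 37 stress and unfolded protein response genes 15 rose (40.5%, near the background) and 6 fell (16.2%, below it), with a median of 0.66. The chaperone Hspa8 rose from 133 ± 15 to 3099.6 ± 385 CPM, Dnajb9, an endoplasmic reticulum cochaperone, from 10.3 ± 0.481 to 228 ± 13.3 CPM and the stress gene Sesn2 from 0.338 ± 0.237 to 24.1 ± 10 CPM, and the sensor Ern1 fell from 223 ± 30.8 to 14.1 ± 3.78 CPM.

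Some genes had nearly equal mean CPM at both stages. Among genes of at least 100 CPM at both stages, the 4 with the smallest changes were Nup153 of the nuclear pore, Katna1, a microtubule-severing enzyme, Snrpd1 and Hat1, a histone acetyltransferase. Nup153 had 116, 101, 123 and 102 CPM in zygotes A to D and 111, 119, 90.8 and 120.5 CPM in 4-cell embryos A to D. Katna1 stood at 205 ± 14.7 and 209.8 ± 55.7 CPM and Hat1 at 235 ± 12.7 and 237 ± 35.7 CPM, with overlapping groups. This steadiness is that of CPM and depends on the scaling: Hat1 changed by -0.62 with DESeq2, -0.47 with TMM scaling and -0.45 with edgeR. In 2-cell embryos the mean was higher for Nup153, at 155 ± 16.7 CPM, and lower for the others, at 241 ± 16.9 CPM for Snrpd1, 111 ± 11.5 CPM for Katna1 and 77 ± 13.6 CPM for Hat1.

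The 2-cell libraries placed the changes in time, as a description, since zygote and 4-cell values chose the genes. The letters of the 4 2-cell columns (E to H) match none of the labelled pools (A to D), and these columns stand for the stage without a link to single pools. Of the 5772 genes that rose, 45.2% had a 2-cell mean within 1 log2 unit of the zygote mean only, 25.3% lay in between at 1 unit or more from both, and 15.5% were within 1 unit of the 4-cell mean only. Of the 4231 genes that fell, 67.8% were still within 1 unit of the zygote mean only in 2-cell embryos and 7.23% had reached the 4-cell mean only. Obox5 and Tcl1 were such late fallers, at 15615 ± 1767 and 13388 ± 2524 CPM in 2-cell embryos. H1f8 and Ooep fell earlier, to 286 ± 95.5 and 330.4 ± 42.2 CPM. In 8-cell embryos 89.0% of the risen and 93.7% of the fallen genes lay within 1 unit of the 4-cell mean only, so the differences lasted at least 1 further stage.

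Genes that peaked in 2-cell embryos were found among called and uncalled genes alike. A 2-cell mean at least 1 unit above both other means was found for 574 of the 4639 genes not called (12.4%), 367 of those that fell (8.67%) and 150 of those that rose (2.60%). Of 27 genes listed as transient at the 2-cell stage 12 rose and 4 fell, and their median level was 0.14 on the log2(CPM + 1) scale in zygotes, 6.89 in 2-cell and 1.61 in 4-cell embryos. Zfp352 had a 4-cell mean of 4.34 ± 2.32 CPM after 467 ± 57.7 CPM in 2-cell embryos. The list was not uniform: Pramel7 and Pramel6 went from 22.5 ± 5.4 and 68 ± 12 CPM in 2-cell embryos to 793 ± 84.5 and 253 ± 99.5 CPM in 4-cell embryos, from at most 1 read per zygote library, and Zfp750 fell from 60.9 ± 9 to 0.379 ± 0.416 CPM.

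The heavy gradient fractions gave the same genes a second reading in libraries that the transcriptome comparison did not use. Of 14524 genes tested there, 2057 (14.2%) were called higher in 4-cell embryos and 5333 (36.7%) lower, together 50.9%, around a median of -0.98. After quantile normalization 3639 were higher and 3691 lower around a median of -0.06, so the excess of falls depended on the scaling: rises were 27.8% of calls without it and 49.6% with it. Heavy means of separate gradients had r of 0.906 to 0.919 in zygotes but 0.616 to 0.727 in 4-cell embryos, so these values are noisier. Across the 14149 genes tested in both, Pearson's r between the changes was 0.772 and Spearman's rho 0.760, and genes are not independent. Of the genes higher in the transcriptome 33.9% were called higher in the heavy fractions, and of the genes lower 78.3% were called lower; after quantile normalization of the heavy fractions these shares were 53.8% and 62.2%. Read the other way, 93.7% of heavy-fraction rises and 62.0% of heavy-fraction falls were called the same way in the transcriptome. Calls in opposite directions were made for 397 genes that rose in the transcriptome and 5 that fell, and for 161 and 52 after quantile normalization.

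Ribosomal protein transcripts were higher in both readings, with 74 of 78 called higher in the heavy fractions (background 14.2%) and none lower. Rps19 had heavy-fraction means of 1.3 ± 1.67 CPM in the 3 zygote gradients and 1909 ± 431 CPM in the 3 4-cell gradients. The largest rises were present there as well, Mt1 at 6461 ± 2064 CPM and Pdxk at 3019.7 ± 1242 CPM, from means of 0.58 and 0 CPM. Maternal complex genes were called lower in 16 of 18 cases (background 36.7%), Ooep going from 8283 ± 2645 to 66.9 ± 61.7 CPM. The 2 readings parted in several lists. Of 20 aminoacyl-tRNA synthetases 13 rose in the transcriptome, while 1 was called higher and 12 lower in the heavy fractions (background 14.2% and 36.7%). There DNA replication had 3 of 49 higher and 24 lower, histone modifiers 9 of 61 and 20, and RNA polymerase II and Mediator 13 of 57 and 16. In each of these lists more genes rose than fell in the transcriptome. After quantile normalization 6 of the 20 synthetases were called lower, beside 3691 of all 14524 genes. With only the 2 stages in the fit it was 5, beside 3809, and with a replicate block 4, beside 2897. In these settings the synthetase share was near that of all genes, so its excess of falls depended on the setting. Aars rose by 4.55 in the transcriptome and its heavy-fraction mean went from 36.9 ± 22.4 to 20.5 ± 33.1 CPM (change -2.29, limma adjusted p 0.026, 0.27 when only the 2 stages were fitted), and its call was lost after quantile normalization too, at -0.47. Cct4 of the chaperonin had a transcriptome change of 5.71 and a heavy-fraction change of -3.64 (limma adjusted p 0.0013, 0.062 when only the 2 stages were fitted, and -1.80 after quantile normalization, adjusted p 0.018). Mitochondrial ribosomal protein genes had 26 of 77 higher and 10 lower in the heavy fractions, and the proteasome 8 higher and 7 lower of 32; after quantile normalization these were 34 and 6, and 16 and 5. The difference between the 2 readings was not tested.

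**Figure D5:**
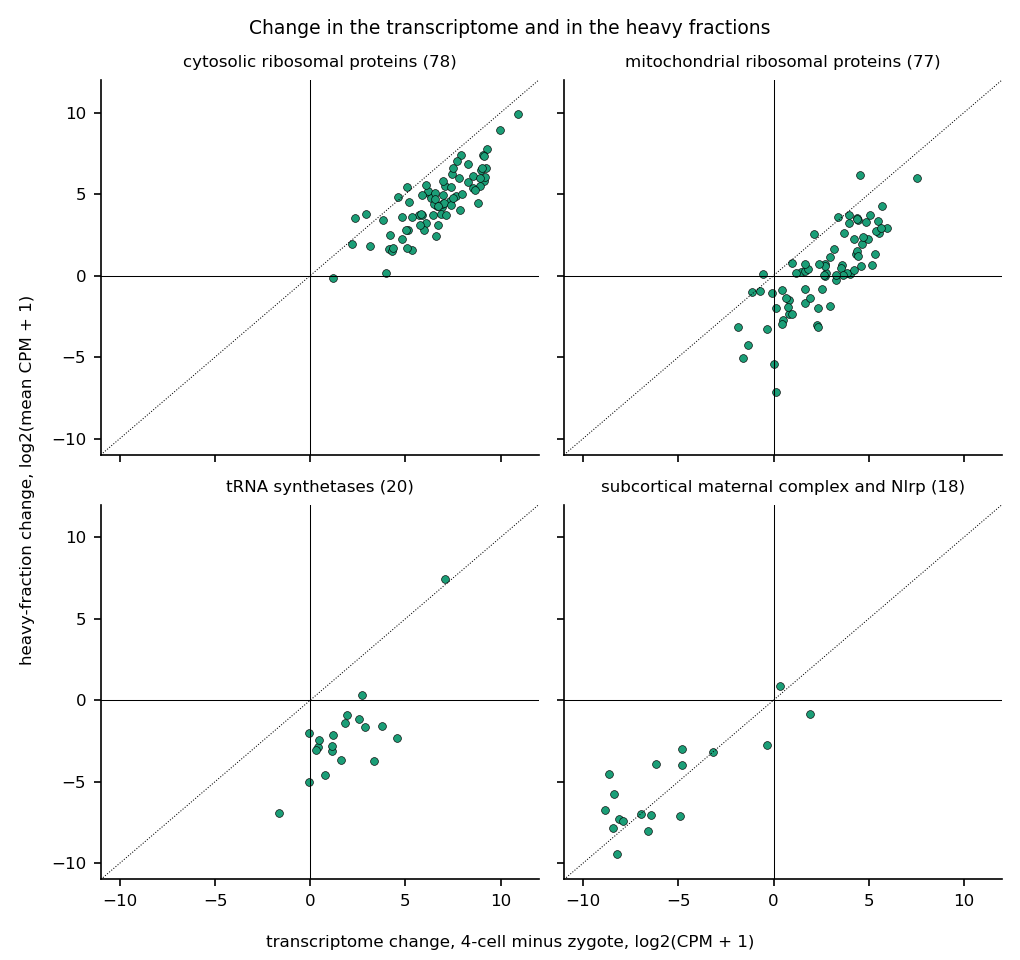
Change between zygote and 4-cell embryo in the transcriptome (x axis, log2(CPM + 1)) and in the heavy fractions (y axis, log2(mean CPM of fractions 6 to 10 + 1)) for the members of 4 gene lists; the dotted line marks equal changes. Of 78 cytosolic ribosomal protein genes all but 1 lie above 0 on both axes (Rpl17 is at -0.16 on the y axis), maternal complex genes mostly low in both, and 18 of the 20 aminoacyl-tRNA synthetase genes lie below 0 on the y axis.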

How the data were processed

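The deposited table holds values for 15854 gene symbols in 272 libraries as CPM (counts per 1 M reads of a library), a unit the authors made from gene counts; 9 columns (4 blastocyst transcriptomes, 4 heavy fractions of 4-cell gradient A and 1 2-cell fraction) sum to over 1 M in the deposited table, where some symbols share values, so they are recorded as a signal and were used on the same scale. Trim Galore 0.6.7, FastQC, HISAT2 2.2.1, featureCounts 2.0.1, edgeR and build GRCm39 are named, without settings, per the submitters' processing notes. Dividing by the value of 1 read gave whole reads, within 0.05, for 100% of the values of all 32 transcriptomes.

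Of 159 symbols in 76 sets with identical values 1 per set was kept, leaving 15771. Genes with at least 1 CPM in 4 of 32 transcriptomes were tested on log2(CPM + 1), with a pseudocount of 1, with limma 3.58.1 (R 4.3.3), trend option, all 8 stages in the fit and no replicate block. The means of fractions 6 to 10 were treated likewise, with at least 1 CPM in 3 of 24 gradients. A call needed a Benjamini-Hochberg adjusted p under 0.05 and a change of at least 1. edgeR 4.0.16 and DESeq2 1.42.0 on recovered reads were alternatives. A floor is 3 reads per library and covers counting error only.

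The comparison, the 28 gene lists and the 30 pairs were chosen with earlier results of these data known, so lists are described by counts and medians and not tested. Named genes were the 8 largest rises and falls, the 6 highest from and to the floor, the 3 largest changes per list with the largest against its majority, the pairs and the 4 steadiest genes of at least 100 CPM, without predicted or clone symbols. Klf5, Nanog, Tfap2c, Pou5f1, Dppa3, Zscan4d and Zfp352, the marker checks, the genes with printed promoters and other examples outside that rule were chosen after their values were seen.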

Additional observations from a re-analysis of the deposited data

Results flagged for a closer look

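A library that stood apart from the other 3 of its stage by Dixon's criterion was looked for in each gene printed above, and 22 of 277 gene and stage groups had one, where chance gives about 1 in 20. In zygotes there were 14 such groups, 6 of them in library B, and in 4-cell embryos 8, of which 4 were in library D. In zygotes these were Btg4 in library B (13420.0 CPM, lowest, against 14367 to 14537 CPM), Cdc25a in library B (27 CPM, highest, against 18 to 18.7 CPM), Eif4e in library C (780.3 CPM, highest, against 559 to 589 CPM) and F11r in library A (2.91 CPM, highest, against 0.332 to 0.759 CPM). Zygote values apart were also Fbxo43 in library B (169 CPM, highest, against 137 to 139 CPM), H2az1 in library A (61 CPM, highest, against 55.6 to 56.4 CPM), Med29 in library C (2.1 CPM, highest, against 0.889 to 1.04 CPM) and Nop2 in library C (0.934 CPM, highest, against 0.0986 to 0.222 CPM). Zygote values apart were also Pabpc1l in library B (43.2 CPM, highest, against 28.6 to 29.9 CPM), Rpl9 in library D (0.5001 CPM, highest, against 0 to 0.0474 CPM), Slc2a3 in library A (0.887 CPM, highest, against 0.0556 to 0.175 CPM) and Zar1 in library B (638 CPM, highest, against 442 to 462 CPM). Zygote values apart were also Zfp352 in library C (0.467 CPM, highest, against 0 CPM in the others) and Zp3 in library B (265 CPM, highest, against 201 to 211 CPM). In 4-cell embryos they were Alppl2 in library D (1024 CPM, lowest, against 1164 to 1175 CPM), Bcl2l10 in library B (9.81 CPM, highest, against 5.16 to 5.84 CPM), Eif3l in library D (395 CPM, highest, against 339.8 to 342 CPM) and H1f8 in library B (8.16 CPM, highest, against 3.7 to 4.02 CPM). Values apart in 4-cell embryos were also Obox2 in library D (7.39 CPM, highest, against 2.32 to 2.81 CPM), Oosp3 in library A (1.08 CPM, highest, against 0.557 to 0.617 CPM), Slc2a3 in library C (27.2 CPM, highest, against 15.1 to 17 CPM) and Trim43b in library D (2369 CPM, highest, against 1708 to 1734 CPM). For each of these genes the zygote and 4-cell values did not overlap, as for 77.8% of all genes tested, and no cause was tested.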

How the results depend on the processing

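Over 19 alternatives the number of genes called higher in the transcriptome was 4159 (pseudocount 5) to 6477 (pseudocount 0.1) and of those called lower 3095 to 5513 (DESeq2), all within 1.5 times of 5772 and 4231; leaving out 1 library gave 5716 to 5821 higher and 4203 to 4251 lower. In the heavy fractions, 1342 genes were higher and 3809 lower with only the 2 stages in the fit, 3639 and 3691 after quantile normalization, and 915 and 2897 with a replicate block, against 2057 and 5333; without 1 gradient, 1840 to 2476 were higher and 4671 to 5347 lower. The causes were not tested. The letters were not used to pair the pools. Deviations of same-lettered transcriptome libraries had correlations of -0.026 to 0.078. The highest of all letter pairs were B with B (0.078) and C with C (0.051), while A and D did not correlate best with their own letter. A replicate block gave 5771 higher and 4231 lower transcripts. Whether some letters share a batch was not tested. Of 148 printed genes 135 kept direction and call under each alternative. Sign changes were as follows. DESeq2 gave Dppa3 -0.16, Hat1 -0.62 and list medians of -0.21 (DNA replication), -0.13 (DNA methylation) and -0.22 (histones); TMM scaling gave -0.03, -0.47, -0.05, -0.02 and -0.06; edgeR gave Hat1 -0.45, DNA replication -0.05 and histones -0.06; quantile normalization gave Hat1 -0.29, DNA replication 0.00 and, upwards and past the threshold, Dppa3 1.24. Without ribosomal and mitochondrial RNA genes Katna1, Nup153, Pou5f1 and Snrpd1 were at 0.02, and with a pseudocount of 0.1 Pou5f1 was at 0.00. Without 1 library Hat1 ranged from -0.08 to 0.08, Katna1 from -0.13 to 0.12, Nup153 from -0.05 to 0.08, Pou5f1 from -0.12 to 0.19 and Snrpd1 from -0.04 to 0.05. Depth of 14.1 to 20.6 M reads leaves genes at or under 3 reads per library without a measured fold.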
